A study of Mus musculus with 12 samples.

Results

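The regulators of blood coagulation and fibrinolysis described here are 9 genes, *F3*, *Tfpi*, *Thbd*, *Procr*, *Plat*, *Plau*, *Plaur*, *Serpine2*, and *F13a1*, chosen by symbol from the 53801 genes of the count and TPM tables. All 9 were found under 1 Ensembl identifier each, and all 9 passed the filter on low counts that left 15306 genes for testing. The rule for the choice names symbols and holds no threshold on measured values, although earlier results of these data were known when it was made. The data are RNA sequencing of hearts of C57BL/6N mice, with 4 hearts and 4 libraries in each of 3 groups: sham surgery, day 1 after acute myocardial infarction (day 1 AMI), and day 7 after acute myocardial infarction (day 7 AMI). AMI was made by tying off the left anterior descending coronary artery. Sham mice had surgery without the tie, and the day on which their hearts were taken is not given in the sources used here. No gene was altered in any group. RNA was extracted from heart tissue and not from sorted cells, so a lower level of a transcript can come from fewer cells of a type or from less RNA per cell, and the data cannot tell these apart.

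Coagulation and fibrinolysis oppose each other at the vessel wall and in injured tissue. Tissue factor, the product of *F3*, starts clotting when it binds factor VII, and tissue factor pathway inhibitor, the product of *Tfpi*, blocks that complex. Thrombin made by the cascade cuts fibrinogen to fibrin, which factor XIII cross-links, while thrombomodulin (*Thbd*) and the endothelial protein C receptor (*Procr*) turn thrombin towards the activation of protein C, an anticoagulant. Fibrin is dissolved by plasmin, which tissue-type (*Plat*) and urokinase-type (*Plau*) plasminogen activator release from plasminogen, the latter bound to its receptor (*Plaur*). Serpins such as the product of *Serpine2*, protease nexin-1, inhibit thrombin and both activators. After infarction this system acts in the vessels and also in the remodeling of the matrix of the scar.

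Promoters are shown for *F3* and *Plaur*, the gene that starts clotting and the gene with the largest change among the 9, so that the window upstream of each can be read beside its level. They are the 250 bases before the start of the gene in RefSeq on GRCm38.p6, written from 5′ to 3′ on the plus strand, with matches on either strand to the AP-1 motif TGANTCA and to the GC box GGGCGG in capitals.

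*F3* (chr3:121723287-121723536): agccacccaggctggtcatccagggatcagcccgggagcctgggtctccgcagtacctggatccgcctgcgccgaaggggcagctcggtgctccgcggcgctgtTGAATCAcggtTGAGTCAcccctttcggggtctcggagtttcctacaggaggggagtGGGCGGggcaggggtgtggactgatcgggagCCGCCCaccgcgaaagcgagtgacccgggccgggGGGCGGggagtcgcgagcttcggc

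*Plaur* (chr7:24462233-24462482): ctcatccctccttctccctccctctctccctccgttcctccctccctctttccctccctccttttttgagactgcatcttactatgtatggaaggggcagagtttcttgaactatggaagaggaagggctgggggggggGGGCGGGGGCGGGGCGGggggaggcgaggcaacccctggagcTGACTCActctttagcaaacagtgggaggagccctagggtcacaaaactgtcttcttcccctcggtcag

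The *F3* window held 70% G and C, with 2 AP-1 matches whose first bases lie 146 and 135 bases before the start, and 3 GC boxes. In the *Plaur* window, which held 59.6% G and C, the single AP-1 match began 69 bases before the start and followed a run of 3 GC boxes, the last 2 of which share a base. The median G and C content of all 32841 promoter windows of that length was 52.4%. An AP-1 match stood in 6.75% of these windows and a GC box in 32.7%. RefSeq promoters were matched for 6 of the 9 genes, with 8 windows in all, and among them *Procr* also held an AP-1 match and *Serpine2* held 6 GC boxes. No exact match to the NF-kB motif (0.356% of all windows) or to the hypoxia element ACGTG (16.6%) was found in these 8 windows, with both strands searched. The NF-kB pattern used was strict, and near matches were not counted. Between its AP-1 matches and its first GC box, the *F3* window holds a stretch that misses this pattern only at the first base. The lack of an exact match thus does not show that a window lacks an NF-kB site. A match is a description of letters and not of a bound site.

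Each library held between 23204551 and 32166517 counts. Levels are given as CPM, counts scaled to one common library total after TMM normalization in edgeR, and TPM, which is per transcript length, was used wherever levels of different genes are compared. The smallest level taken as detected, 3 counts, was between 0.0895 and 0.156 CPM, which covers counting error only. TMM scaling factors were between 0.781 and 0.917 for sham libraries and between 1.01 and 1.17 for AMI libraries, and mitochondrial transcripts took between 12.1% and 27.4% of counts. Without these factors the median log2 fold change (FC) of all genes moved from -0.01 to 0.26 on day 1 and from 0.03 to 0.43 on day 7, and on log2(TPM + 1) the median was 0.23 and 0.44. The label of heart tissue was checked against 8 cardiomyocyte markers, which summed to between 39835 and 88008 CPM, and the 4 hepatocyte markers summed to at most 0.452 CPM, with *Alb* and *Serpina1a* at 0 in all 12 libraries. The p-values below set a difference between groups against the spread between hearts. In edgeR that spread was estimated from the 12 libraries of the 3 groups in 1 fit, unless another fit is named.

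A change was called where edgeR's quasi-likelihood test gave a false discovery rate (FDR, by Benjamini and Hochberg) below 0.05 and the FC was at least 2. On day 1 AMI against sham, 3 of the 9 genes were called higher and 0 lower, where 7.79% of all genes tested were called higher and 2.98% lower. The 3 were *Plaur*, *Plau*, and *Procr*. On day 7 AMI against sham, 5 were called higher and 0 lower, beside 15.3% and 5.88% of all genes, with *Plat* and *Serpine2* added to the same 3 genes. On day 7 AMI against day 1 AMI, *Serpine2* was called higher and *Plaur* lower, where 8.55% of genes were called higher and 2.69% lower. In CPM, the groups did not overlap for 4 genes that were higher and 2 that were lower on day 1 (19.6% and 17.1% of all genes), for 4 and 2 on day 7 (28.3% and 24.7%), and for 2 and 3 between the days (23.5% and 20.9%). At an FDR below 0.05 without a FC minimum, 5 genes were higher and 1 lower on day 1 (22% and 19.9% of all genes), 5 higher and 2 lower on day 7 (30.9% and 28.4%), and 2 higher and 4 lower between the days (24.2% and 22.8%). The median log2 FC of the 9 genes was 0.67, 1.45, and -0.32 in the 3 comparisons, beside -0.01, 0.03, and 0.02 for all genes. Both AMI groups were compared with the same 4 sham hearts.

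**Figure D1:**
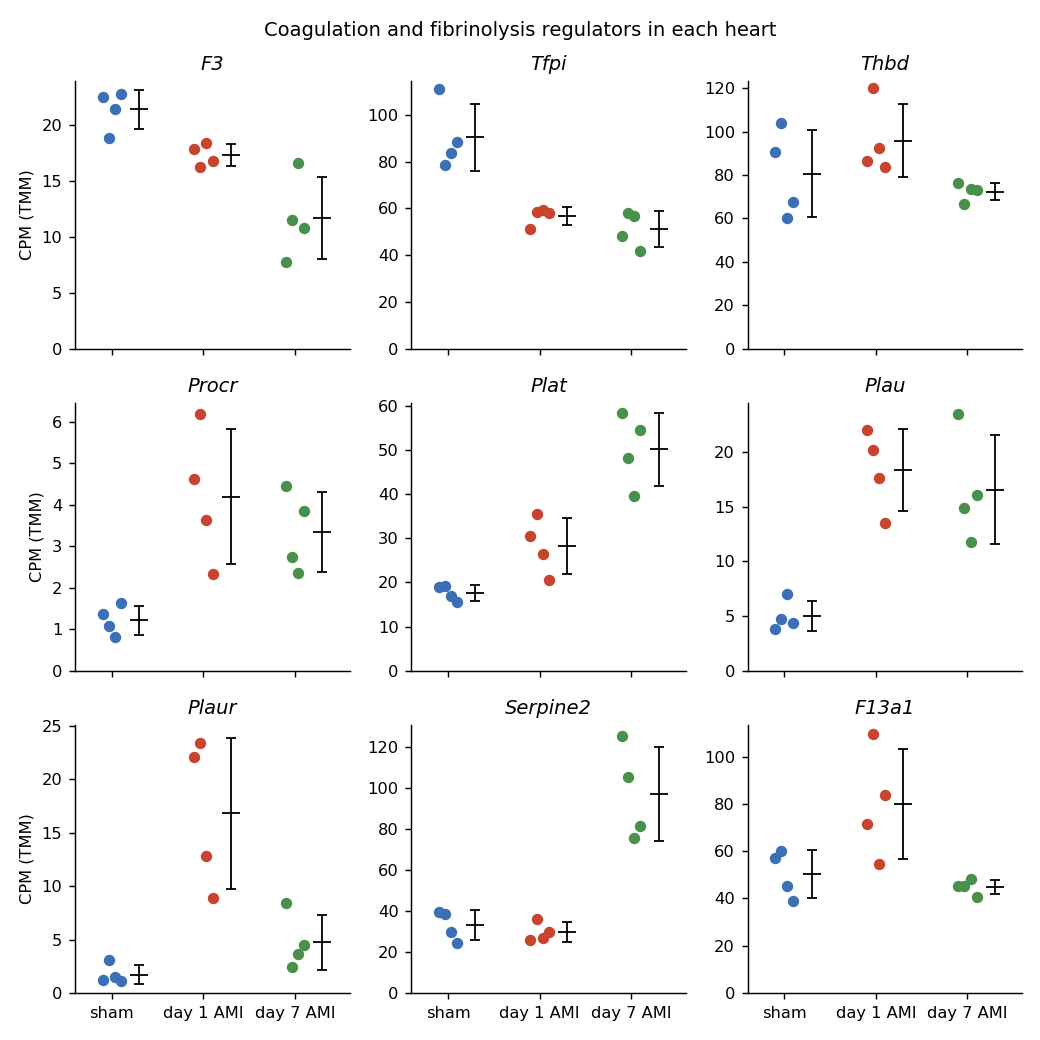
Level of each of the 9 genes in each heart, as TMM-normalized CPM on linear axes that start at 0, by group (sham, day 1 AMI, day 7 AMI). Each point is 1 heart, and the bars beside the points are the group mean and SD. The 4 day 1 AMI hearts stand above the 4 sham hearts for *Procr*, *Plat*, *Plau*, and *Plaur*, and the 4 day 7 AMI hearts stand above all others for *Plat* and *Serpine2*.

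**Figure D2:**
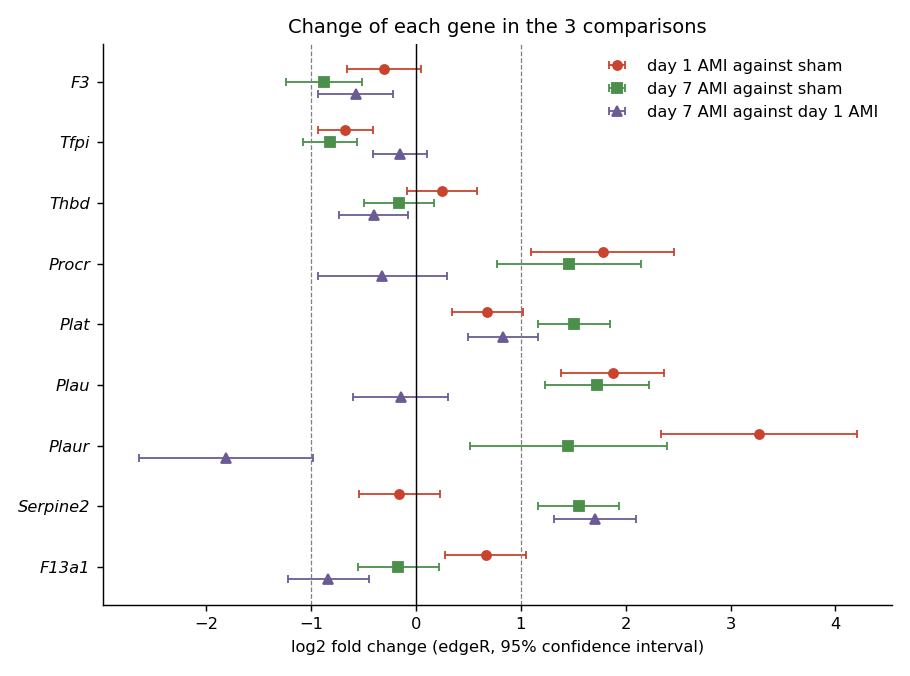
Log2 FC of each of the 9 genes in the 3 comparisons, from edgeR's quasi-likelihood fit of 12 libraries, with 95% confidence intervals as bars. Dashed lines mark a FC of 2 in either direction. *Plaur* on day 1 lies farthest to the right at 3.27, and the intervals of *Thbd* lie between the dashed lines in all 3 comparisons.

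*F3*, which encodes tissue factor (ENSMUSG00000028128, GRCm38 chromosome 3, 121723537 to 121735048, plus strand), was lower in day 7 AMI hearts. It stood at 22.4, 18.9, 21.4, and 22.8 CPM in the sham hearts, at 17.8, 16.2, 18.4, and 16.8 CPM on day 1, and at 7.74, 11.5, 16.6, and 10.8 CPM on day 7. Every AMI heart was below every sham heart, and day 7 AMI replicate 3 alone reached the day 1 range. The log2 FC against sham was -0.30 on day 1 (SE 0.166, 95% interval -0.66 to 0.05, adjusted p = 0.157 in edgeR) and -0.88 on day 7 (SE 0.169, adjusted p = 0.000456), which is a level 1.84-fold lower and short of the FC minimum. Fitted on only the groups compared, the day 1 value passed the FDR. Its adjusted p was then 0.0239 in edgeR and 0.0176 in DESeq2. Without day 7 AMI replicate 3, *F3* on day 7 passed both thresholds at -1.10 (adjusted p = 1.38e-05). The difference between the days was -0.57 (SE 0.168, adjusted p = 0.0120), with -0.45 (adjusted p = 0.0341) on library sizes alone and -0.35 (adjusted p = 0.0696), which does not pass, on log2(TPM + 1). The day 1 value rested on the scaling, at -0.03 with library sizes alone and 0.02 on log2(TPM + 1), and on day 7 the value was -0.48 (adjusted p = 0.0179) and -0.33 (adjusted p = 0.0616) on these scales, of which the second does not pass. In TPM, the sham hearts stood at 14.7 ± 0.637 (SD, n = 4), day 1 at 14.9 ± 0.549, and day 7 at 11.8 ± 3.37.

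*Tfpi*, the inhibitor of the tissue factor complex (ENSMUSG00000027082, chromosome 2, 84432855 to 84476775, minus strand), was lower in both AMI groups on the TMM scale. Its levels were 111, 78.6, 83.6, and 88.5 CPM in sham, 51.0, 58.3, 59.4, and 58.1 CPM on day 1, and 48.1, 58.2, 56.7, and 41.8 CPM on day 7. No AMI heart reached a sham heart, and the AMI groups overlapped each other. The log2 FC was -0.67 on day 1 (SE 0.121, adjusted p = 0.000665 in edgeR) and -0.82 on day 7 (SE 0.121, adjusted p = 4.91e-05), with -0.15 between the days (95% interval -0.41 to 0.11, adjusted p = 0.330). With library sizes alone the values were -0.39 (adjusted p = 0.00552) and -0.41 (adjusted p = 0.00232). On log2(TPM + 1) they were -0.24 (adjusted p = 0.0557) and -0.10 (adjusted p = 0.364) and passed no threshold, although relative to the median of all genes on that scale they were -0.47 and -0.54. TPM was 43.1 ± 2.79 (SD, n = 4) in sham, 36.3 ± 2.11 on day 1, and 40.3 ± 5.37 on day 7.

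*Thbd*, which encodes thrombomodulin, the thrombin receptor of endothelium (ENSMUSG00000074743, chromosome 2, 148404466 to 148408188, minus strand), was not called against sham. It stood at 90.8, 104, 60.4, and 67.7 CPM in sham, at 86.5, 120.3, 92.4, and 83.6 CPM on day 1, and at 76.2, 66.8, 73.4, and 73.1 CPM on day 7. The sham hearts spanned the day 7 hearts and most of the day 1 hearts, while every day 1 heart was above every day 7 heart. The log2 FC was 0.25 on day 1 (95% interval -0.09 to 0.58, adjusted p = 0.220 in edgeR) and -0.16 on day 7 (95% interval -0.49 to 0.18, adjusted p = 0.400), and the difference between the days was -0.40 (SE 0.155, adjusted p = 0.0450). That difference did not pass with library sizes alone (-0.28, adjusted p = 0.179), on log2(TPM + 1) (-0.15, adjusted p = 0.476), without day 1 AMI replicate 2 (-0.28, adjusted p = 0.146), without day 1 AMI replicate 3 (adjusted p = 0.0672), or without any 1 of the 4 day 7 hearts (adjusted p from 0.0581 to 0.105 in edgeR). The direction on day 7 against sham turned with the scaling, at 0.24 (adjusted p = 0.207) with library sizes alone and 0.42 (adjusted p = 0.0351) on log2(TPM + 1), and day 1 passed the FDR on both at 0.52 (adjusted p = 0.0171) and 0.57 (adjusted p = 0.0121).

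*Procr*, the receptor that presents protein C to thrombomodulin (ENSMUSG00000027611, chromosome 2, 155751117 to 155755471, plus strand), rose in both AMI groups from a low level. The sham hearts held 1.36, 1.07, 0.825, and 1.63 CPM, which is 17 to 34 counts per library. Day 1 hearts held 4.63, 6.18, 3.63, and 2.33 CPM, and day 7 hearts 4.44, 2.74, 2.36, and 3.84 CPM. Every AMI heart was above every sham heart, and the AMI groups overlapped. *Procr* was 3.44-fold higher on day 1 (log2 FC 1.78, SE 0.318, adjusted p = 0.000636 in edgeR) and 2.76-fold higher on day 7 (1.46, SE 0.320, adjusted p = 0.00125). The difference between the days was -0.32 (95% interval -0.93 to 0.29, adjusted p = 0.378).

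*Plat*, the tissue-type plasminogen activator (ENSMUSG00000031538, chromosome 8, 22757727 to 22782844, plus strand), was higher on day 1 than in sham and higher again on day 7. Sham hearts stood at 18.9, 19.2, 16.9, and 15.5 CPM, day 1 hearts at 30.6, 35.5, 26.5, and 20.5 CPM, and day 7 hearts at 58.4, 48.1, 39.5, and 54.6 CPM. No group overlapped another. The log2 FC was 0.68 on day 1 (SE 0.159, adjusted p = 0.00378 in edgeR), under the FC minimum there and with library sizes alone (0.95) and on log2(TPM + 1) (0.92), and 1.51 on day 7 (SE 0.160, adjusted p = 2.59e-06), a level 2.85-fold higher. Between the days the difference was 0.83 (SE 0.155, adjusted p = 0.000621), and on log2(TPM + 1) it passed the FC minimum at 1.02 (adjusted p = 0.000321).

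*Plau*, the urokinase-type activator (ENSMUSG00000021822, chromosome 14, 20836660 to 20843385, plus strand), rose on both days. It was at 3.81, 4.76, 6.98, and 4.40 CPM in sham, at 22.0, 20.2, 17.6, and 13.5 CPM on day 1, and at 23.5, 14.8, 11.8, and 16.1 CPM on day 7. The lowest AMI heart was above the highest sham heart, and the AMI groups overlapped. The level was 3.67-fold higher on day 1 (log2 FC 1.87, SE 0.231, adjusted p = 5.72e-05 in edgeR) and 3.32-fold higher on day 7 (1.73, SE 0.231, adjusted p = 2.01e-05). The difference between the days was -0.14 with a 95% interval of -0.60 to 0.31 (adjusted p = 0.602).

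*Plaur*, the receptor that holds urokinase at the cell surface (ENSMUSG00000046223, chromosome 7, 24462484 to 24475968, plus strand), was highest on day 1. Its levels were 1.20, 3.04, 1.50, and 1.10 CPM in sham, or 23 to 74 counts per library, then 22.1, 23.5, 12.8, and 8.86 CPM on day 1 and 8.41, 2.47, 3.62, and 4.46 CPM on day 7. Each day 1 heart was above every heart of the other groups. *Plaur* was 9.63-fold higher on day 1 (log2 FC 3.27, SE 0.435, adjusted p = 9.27e-05 in edgeR), 2.74-fold higher on day 7 (1.45, SE 0.439, adjusted p = 0.0106), and 3.52-fold lower on day 7 than on day 1 (-1.81, SE 0.387, adjusted p = 0.00164). Sham replicate 2, the highest sham heart, overlapped the lowest day 7 heart, and without it the log2 FC was 3.72 on day 1 and 1.91 on day 7. Without day 7 AMI replicate 1, the highest of its group, the day 7 value was 1.02 (adjusted p = 0.0485).

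The 8 neutrophil markers, of which 7 were tested, varied beside *Plaur*. Their summed level was 30.9, 57.1, 3.01, and 2.44 CPM in sham replicates 1 to 4, between 38.2 and 135 CPM on day 1, and between 7.53 and 38.7 CPM on day 7. Sham replicate 2 was the highest sham heart for these markers and for *Plaur*, while sham replicates 3 and 4 differed from it in the markers far more than in *Plaur*. On day 1, 2 of the 7 were called higher against sham, *Csf3r* and *Cxcr2*, and between the days 5 of 7 were called lower. *Ly6g*, a defining marker, was at 0 in 6 of 12 libraries. The 4 erythroid markers of sham replicate 2 summed to 4339 CPM, beside at most 1151 CPM in any other library. Without sham replicate 2, 3, 5, and 2 of the 9 genes were called in the 3 comparisons, as with it. The part of neutrophils in the *Plaur* result was not tested.

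*Serpine2*, which encodes protease nexin-1 (ENSMUSG00000026249, chromosome 1, 79794197 to 79861180, minus strand), rose on day 7 alone among the days measured. It stood at 39.5, 38.7, 29.8, and 24.6 CPM in sham, at 25.7, 36.3, 26.8, and 30.0 CPM on day 1, and at 126, 105, 75.9, and 81.5 CPM on day 7. The sham and day 1 hearts overlapped, and every day 7 heart was above both. The log2 FC was -0.16 on day 1 (95% interval -0.54 to 0.23, adjusted p = 0.509 in edgeR), with a direction that turned to 0.12 with library sizes alone and 0.15 on log2(TPM + 1). On day 7 the level was 2.93-fold that of sham (1.55, SE 0.182, adjusted p = 6.16e-06) and 3.27-fold that of day 1 (1.71, SE 0.181, adjusted p = 6.71e-06).

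*F13a1*, the catalytic subunit of factor XIII that cross-links fibrin (ENSMUSG00000039109, chromosome 13, 36867178 to 37050244, minus strand), was higher on day 1 than in sham or on day 7. Sham hearts held 57.3, 60.0, 45.1, and 38.9 CPM, day 1 hearts 71.4, 109.7, 54.5, and 83.6 CPM, and day 7 hearts 45.1, 45.1, 48.1, and 40.7 CPM. Day 1 AMI replicate 3 was within the sham range, and every day 1 heart was above every day 7 heart. The log2 FC was 0.67 on day 1 (SE 0.180, adjusted p = 0.00907 in edgeR) and -0.17 on day 7 (95% interval -0.56 to 0.22, adjusted p = 0.439), and -0.84 between the days (SE 0.180, adjusted p = 0.00178), all under the FC minimum. With library sizes alone and on log2(TPM + 1), the day 1 value was 0.94 and 0.91, the difference between the days was -0.71 and -0.52, and the day 7 direction turned to 0.23 and 0.39. An antisense gene, *Gm30489*, covers 1.10% of the exon bases of *F13a1* and held at most 2 counts in a library.

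**Figure D3:**
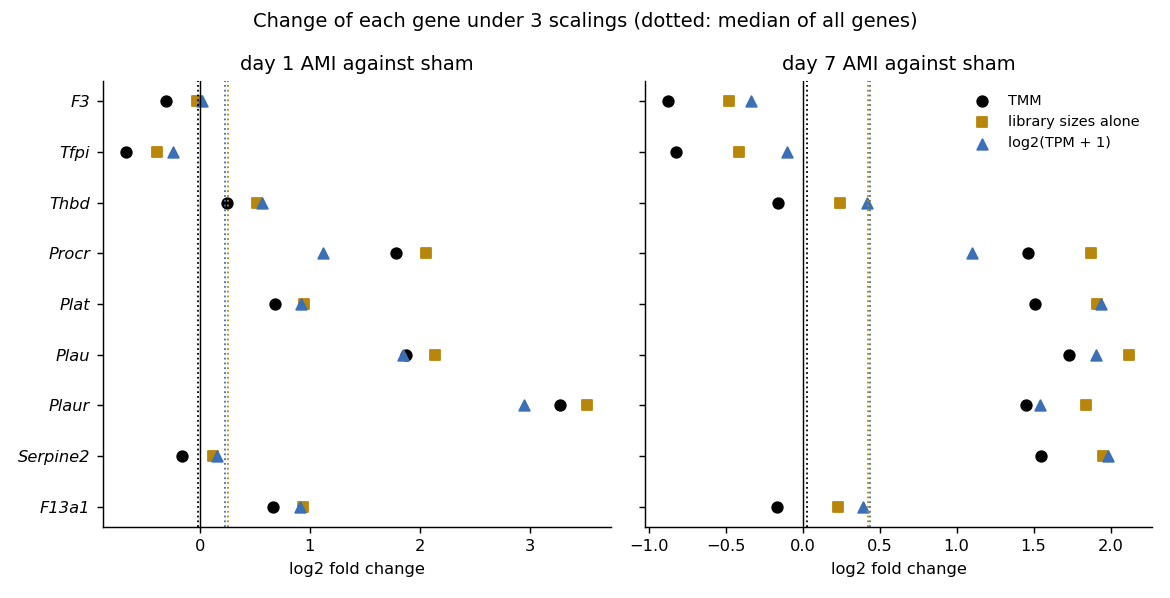
Log2 FC of each gene against sham under 3 scalings, TMM, library sizes alone, and limma on log2(TPM + 1), for day 1 AMI (left) and day 7 AMI (right). Dotted lines mark the median of all genes under each scaling. *Thbd*, *F13a1*, and *F3* have points near or on both sides of 0, while *Procr*, *Plau*, and *Plaur* stay beyond 1 in both panels.

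Levels of the 9 genes were compared per length in TPM. In sham hearts *Tfpi* was the highest at 43.1, and its range did not meet that of *Thbd* (25.3), whose range overlapped that of the next gene, as did each neighbour down the order *Serpine2* (19.4), *F13a1* (15.0), and *F3* (14.7). *Plat* stood apart at 8.40, and *Plau* (2.63), *Procr* (1.53), and *Plaur* (1.52) were lowest and overlapped in that order. On day 1 the order from *Thbd* (37.4) through *Tfpi* (36.3), *F13a1* (29.6), *Serpine2* (21.4), *Plaur* (18.8), and *Plat* (17.0) to *F3* (14.9) had overlapping neighbours throughout. *Plaur* thus moved from the lowest mean to the fifth of 9. On day 7 *Serpine2* was the highest at 79.5 TPM and did not overlap *Tfpi* (40.3), which overlapped *Plat* (35.3) and through it *Thbd* (33.3). *F13a1* (19.6) stood below these and above *Plau* (12.7), *F3* (11.8), *Plaur* (6.62), and *Procr* (4.51).

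The balance between members was followed as ratios of TPM within a library, which do not depend on the scaling between libraries. For 4 hearts against 4 the smallest p of the two-sided exact permutation test is 0.0286, which was reached by 7 of 12 tests and is 0.049 after Benjamini-Hochberg adjustment over the 12. *F3* over *Tfpi*, the initiator over its inhibitor, was 0.343 in sham (geometric mean, range 0.300 to 0.368), 0.413 on day 1 (0.373 to 0.457), and 0.287 on day 7 (0.215 to 0.392). Every day 1 heart was above every sham heart, a log2 difference of 0.27 (exact p = 0.0286), whereas the day 7 difference of -0.26 was within the spread (exact p = 0.314, adjusted p = 0.419) and that between the days was -0.52 (exact p = 0.0571, adjusted p = 0.0857).

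*Plau* over *Plat*, urokinase over the tissue-type activator, was 0.312 in sham (range 0.230 to 0.460), 0.706 on day 1 (0.611 to 0.783), and 0.354 on day 7 (0.325 to 0.440). The day 1 hearts stood above both other groups, with a log2 difference of 1.18 from sham and of -0.99 from day 1 to day 7 (each exact p = 0.0286), and day 7 differed from sham by 0.18 (exact p = 0.400). *Plau* over *Plaur*, the protease over its receptor, was 1.79 in sham (0.942 to 2.69), 0.672 on day 1 (0.509 to 0.844), and 2.04 on day 7 (1.58 to 3.27). The receptor was thus higher per length than the protease in every day 1 heart and in sham replicate 2. The log2 difference was -1.42 on day 1 and 1.60 between the days (each exact p = 0.0286), and 0.19 on day 7 against sham (exact p = 0.686). *Serpine2* over the sum of *Plat* and *Plau*, an inhibitor over both activators, was 1.72 in sham (1.41 to 2.35), 0.743 on day 1 (0.549 to 1.13), and 1.65 on day 7 (1.32 to 1.90). It was lower in every day 1 heart than in every heart of the other groups, by -1.21 from sham and 1.15 between the days on the log2 scale (each exact p = 0.0286), and on day 7 it was -0.06 from sham (exact p = 0.743). Other serpins that inhibit the activators, such as the product of *Serpinb2*, are not in this ratio, so it does not measure their inhibition as a whole.

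**Figure D4:**
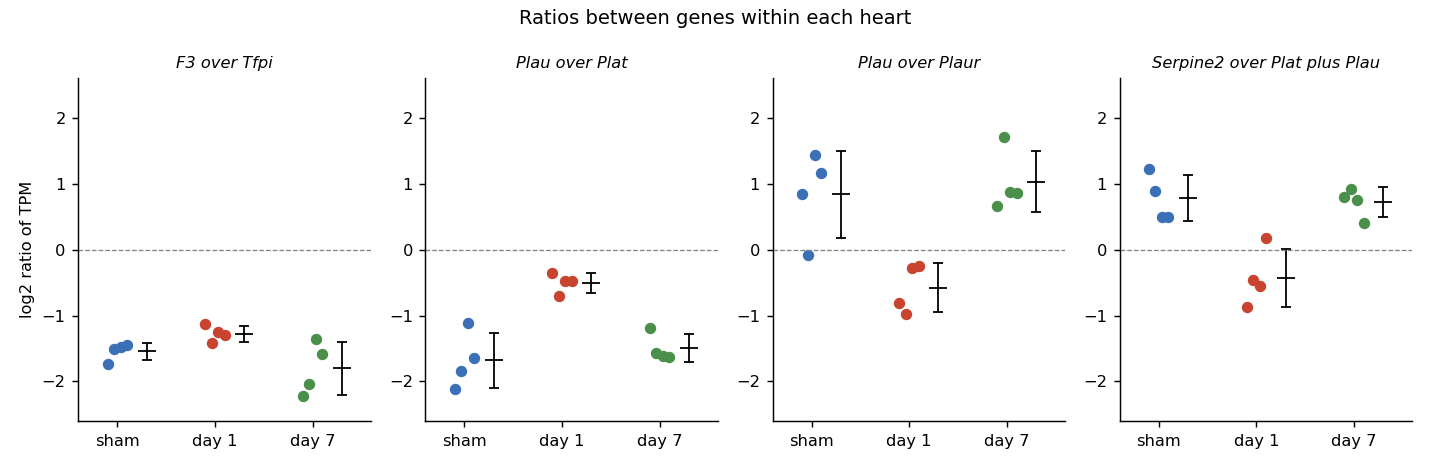
Ratios of TPM within each heart for *F3* over *Tfpi*, *Plau* over *Plat*, *Plau* over *Plaur*, and *Serpine2* over the sum of *Plat* and *Plau*, on a log2 axis by group, with a dashed line where both sides are equal. Each point is 1 heart, and the bars beside the points are the mean and SD of the log2 ratio. Apart from *F3* over *Tfpi*, the 4 day 1 AMI hearts lie apart from both other groups, and the sham and day 7 AMI hearts overlap.

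Transcripts of the cell types that can make these proteins also moved. The 10 endothelial markers summed to between 995 and 1150 CPM in sham, 875 and 952 on day 1, and 1374 and 1525 on day 7, with 0 of 10 called in either comparison against sham. Their median log2 FC was -0.25 on day 1 and 0.45 on day 7. Several passed the FDR under the FC minimum in edgeR, such as *Kdr* at -0.63 on day 1 (adjusted p = 0.00201) and *Cdh5* at 0.81 on day 7 (adjusted p = 1.56e-05). The log2 level of a gene minus the mean log2 level of these markers was taken in each heart, and the values that follow are changes of this gap between groups, not its size. For *Tfpi* the gap changed by -0.47 on day 1 and -1.24 on day 7 against sham, and by -0.77 between the days (each exact p = 0.0286, adjusted p = 0.0454 over 27 tests of this kind). For *Thbd* the change was 0.46 on day 1 (exact p = 0.2), -0.54 on day 7, and -0.998 between the days (both exact p = 0.0286). *Plat* rose against them by 0.85 and 1.08 on the days against sham (both exact p = 0.0286). *Procr* rose against them by 1.87 and 0.98 (both exact p = 0.0286), but on log2(TPM + 0.1) these were 1.39 (exact p = 0.0571) and 0.51 (exact p = 0.343).

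The 10 monocyte and macrophage markers summed to between 306 and 470 CPM in sham, 547 and 789 on day 1, and 825 and 1251 on day 7, and 4 and then 7 of 10 were called higher against sham. In log2 CPM, which is not per length, *Plaur* lay below the mean of these markers in each group. The gap changed by 2.32 on day 1 against sham (exact p = 0.0286) and by 0.14 on day 7 (exact p = 0.686). For *Plau* the change was 0.95 on day 1 (exact p = 0.0571) and 0.45 on day 7 (exact p = 0.229). For *F13a1* it was -0.29 on day 1 and -1.41 on day 7 (both exact p = 0.0286), of which the day 1 value turned to 0.06 with the median of the markers (exact p = 0.829). Platelets and megakaryocytes are a further source of *F13a1*. Their 8 markers summed to between 15.9 and 38.7 CPM in sham, 30.6 and 42.9 on day 1, and 16.1 and 25.5 on day 7. In this sum, as for *F13a1*, every day 1 heart was above every day 7 heart. Much of it was *Pf4*, with means of 12.6, 29.4, and 13.6 CPM in the 3 groups. Of the 6 markers tested, 1 (*Pf4*) was called higher on day 1 against sham and 2 lower. The median log2 FC of the 6 was -0.74 on day 1 against sham and 0.10 between the days, so the list as a whole did not move as *F13a1* did.

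The 7 fibroblast markers summed to between 888 and 1067 CPM in sham, 1077 and 1368 on day 1, and 4158 and 10206 on day 7, with 2 and 4 of 7 called higher against sham. Much of the rise in the sum was *Col1a1* and *Col1a2*, from means of 135 and 139 CPM in sham to 2892 and 2524 CPM on day 7. The median log2 FC of the 7 markers was 0.29 on day 1 and 1.45 on day 7 against sham. The gap of *Serpine2* to the mean of these markers changed by -0.49 on day 1 (exact p = 0.0571) and -0.40 on day 7 (exact p = 0.114), and with the median of the markers it was 0.12 and 0.06, so no difference beyond the spread was found. For *F3* the change was -2.86 on day 7 (exact p = 0.0286), and on day 1 it was -0.65 (exact p = 0.0286) with the mean and -0.04 (exact p = 0.829) with the median. Cardiomyocyte markers summed to between 76086 and 88008 CPM in sham and between 39835 and 46697 CPM on day 7, where 6 of 8 were called lower. The median log2 FC of these 8 markers was -0.66 on day 1 and -1.15 on day 7 against sham. *F3* was not set against them. Smooth muscle and pericyte (6 markers), mesothelial (5), and erythroid (4) markers had 2, 3, and 0 called higher and 0, 0, and 2 called lower on day 7 against sham. The part of these cell types in the levels of the 9 genes was not tested.

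Of 56 other genes of coagulation and fibrinolysis in 5 lists, 31 were tested, and 6 had no count in any library. Among the 31, 11 were called higher and 1 lower on day 1 against sham, 13 higher and 1 lower on day 7, and 5 higher and 4 lower between the days. The shares of all genes called were 7.79% and 2.98%, 15.3% and 5.88%, and 8.55% and 2.69%. The median log2 FC of the 31 was 0.50, 0.91, and 0.33, beside -0.01, 0.03, and 0.02 for all genes. Of 20 clotting factors and related genes, 9 were tested, and *F13b*, *Fga*, and *Fgg*, made in liver, were at 0 in all 12 libraries. On day 1 the 2 called higher were *F10*, which encodes the factor cut by the tissue factor complex, at 0.306 ± 0.307 CPM in sham and 5.07 ± 2.83 on day 1 (log2 FC 4.00, SE 0.678, adjusted p = 0.000455 in edgeR), and *F7*, the partner of tissue factor, at 0.0969 ± 0.129 and 1.55 ± 0.626 CPM (3.83, SE 0.690, adjusted p = 0.000670). Their sham levels lay near the level of 3 counts. Both were lower on day 7 than on day 1, at 0.984 and 0.599 CPM, by -2.36 (adjusted p = 0.00359) and -1.36 (adjusted p = 0.0416). On day 7 the genes called were *F7* and *Vkorc1*, which recycles the vitamin K that clotting factors need for their carboxylation (1.23, adjusted p = 2.52e-06 in edgeR).

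Of 10 other anticoagulants, 6 were tested, 2 were called higher on each day against sham, and 0 were called between the days. They were *Tfpi2*, a further Kunitz inhibitor, at 1.24 on day 1 (adjusted p = 0.0167 in edgeR) and 1.74 on day 7 (adjusted p = 0.00101), and *Serpind1*, heparin cofactor II, at 1.22 (adjusted p = 0.0363) and 2.01 (adjusted p = 0.000818). *Serpind1* was low throughout, at 0.193 ± 0.0859 CPM in sham, 0.447 ± 0.166 on day 1, and 0.773 ± 0.194 on day 7. It held at most 31 counts in a library, and its sham level lay near the level of 3 counts. *Proc*, the protein C precursor to which *Procr* binds, was at 0 in all 12 libraries. Of the 4 protease-activated receptors, 3 were tested, of which 1 was called higher on day 1 and 3 on day 7. *F2r*, the main thrombin receptor, went from 34.5 ± 5.86 CPM in sham and 36.6 ± 5.77 on day 1 to 84.3 ± 8.67 on day 7 (1.29 against sham, adjusted p = 2.27e-06). *F2rl1* was called on both days at 2.16 (adjusted p = 0.000397) and 2.09 (adjusted p = 0.000185), and *F2rl3* on day 7 at 2.34 (adjusted p = 0.000140).

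Among the other plasminogen system genes, 11 of 14 were tested, with 4 called higher and 1 lower on day 1 and 6 higher and 1 lower on day 7. *Anxa2*, part of a cell-surface plasminogen receptor, rose on both days by 1.76 (adjusted p = 3.31e-05 in edgeR) and 1.66 (adjusted p = 7.11e-06). *Mrc2*, a collagen receptor associated with the urokinase receptor, rose on day 7 by 2.34 (adjusted p = 2.06e-07). *Vldlr*, an endocytic receptor for protease and serpin complexes, was the gene called lower, by -1.47 on day 1 (adjusted p = 8.00e-06) and -1.08 on day 7 (adjusted p = 6.92e-06). *Serping1*, the C1 inhibitor, was 1.16 higher on day 7 than on day 1 (adjusted p = 0.000437). *Serpinb2*, which encodes a serpin that inhibits urokinase, had no count in any sham heart. It stood at 0.704 ± 0.443 CPM on day 1, with 0.315 CPM in the lowest heart. The day 1 mean was 4.50-fold the highest sham level of 3 counts, a ratio that leaves out the spread between hearts. On day 7 *Serpinb2* ranged from 0, in 1 heart, to 2.04 CPM. With its change set to such a ratio of the mean on each day, the medians of its list stayed at 0.55 and 1.03. *Plg*, which encodes plasminogen, made mainly in liver, reached at most 1 count and was not tested. *S100a10* and *Lrp1* were also called. *Serpind1*, *Serpinb2*, *Plg*, *Proc*, *S100a10*, *Lrp1*, and the genes at 0 were named after their values were seen.

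Of 8 other transglutaminases, the family of factor XIII, 2 were tested, and both were called higher on day 1, where *F13a1* stayed under the FC minimum. *Tgm2* went from 321 ± 43.6 CPM in sham to 708 ± 169 on day 1 and 361 ± 31.6 on day 7 (log2 FC 1.14 on day 1, adjusted p = 8.40e-05 in edgeR), and *Tgm1* from 0.339 ± 0.134 to 1.38 ± 0.536 and 0.643 ± 0.116 CPM (2.00, adjusted p = 0.000822).

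**Figure D5:**
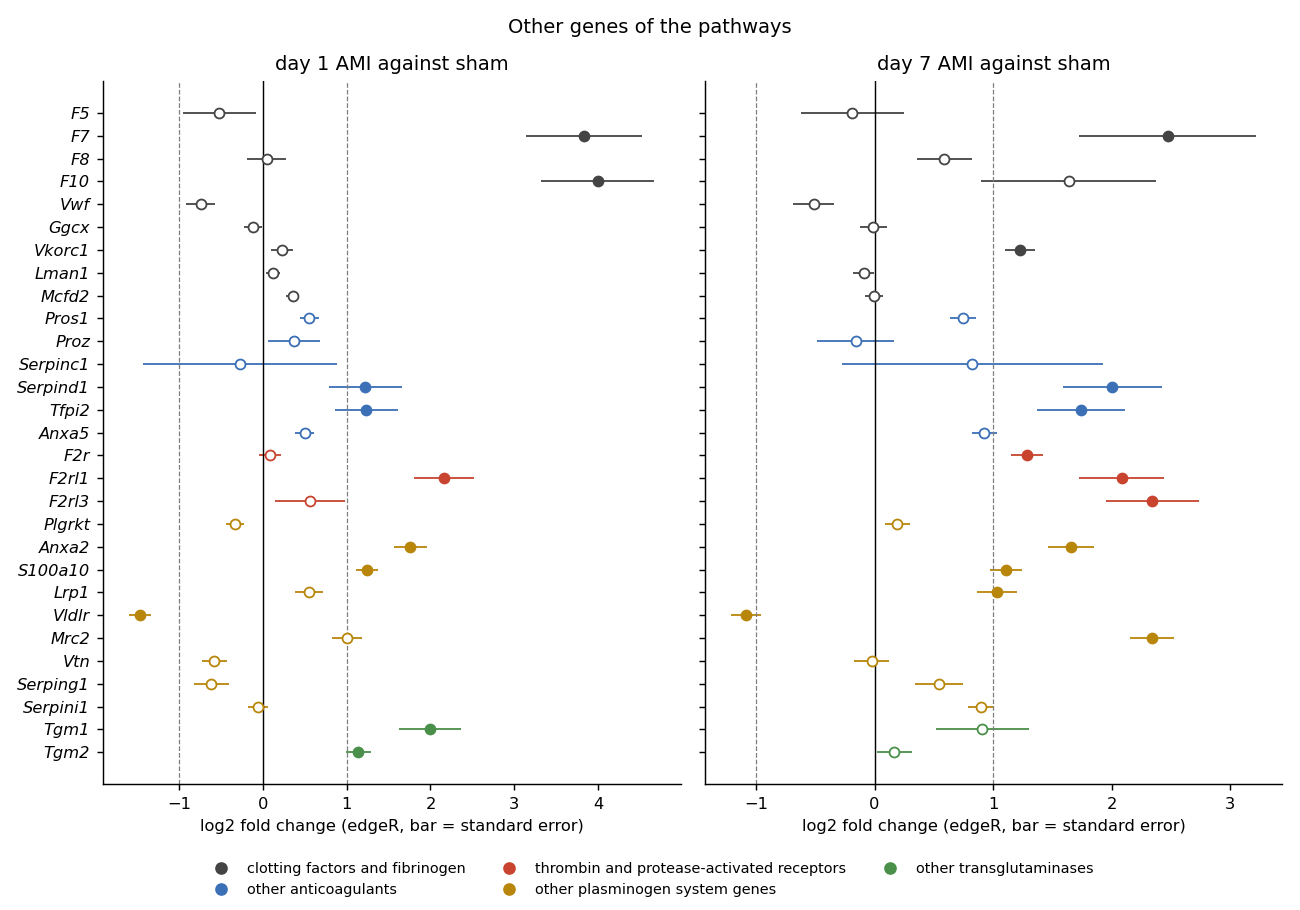
Log2 FC of the tested genes of the 5 lists against sham, for day 1 AMI and day 7 AMI, grouped by list. Filled points were called, open points were not, bars are the standard error, and dashed lines mark a FC of 2. *Serpinb2* is left out because its sham hearts had no counts, and 1 other gene of the lists is not shown. *F10* at 4.00 and *F7* at 3.83 lie farthest to the right on day 1, and *Vldlr* is the filled point to the left of 0.

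Likeness of patterns was measured as the mean absolute difference in log2 CPM over the 12 libraries, after each gene was centred on its own mean, among 13433 genes. The centred values were not scaled, so this distance also depends on how much a gene varied and not only on its pattern. *F3* was nearest to *Trpt1* (0.109) and *Cry2* (0.120), *Tfpi* to *Fkbp3* (0.0942) and *Lrrc2* (0.0957), and *Thbd* to *Midn* (0.0612) and *Samd1* (0.0704). *Procr* was nearest to *Fxyd5* (0.224) and *Actn1* (0.227), and *Plat* to *Wsb1* (0.0929) and *Elf4* (0.0971). *Plau* lay nearest to *Tnfrsf23* (0.184) and *Sqle* (0.184), *Plaur* to *Rnd1* (0.264) and *S100a4* (0.302), *Serpine2* to *Fam20a* (0.170) and *Gpx7* (0.182), and *F13a1* to *Plscr1* (0.119) and *Hk1* (0.147). Among the 9 genes themselves, *F3* and *Tfpi* were each other's nearest at 0.232, as were *Thbd* and *F13a1* at 0.229, *Procr* and *Plau* at 0.340, and *Plat* and *Serpine2* at 0.377. *Plaur*, which had the largest change of the 9, was farther from all of them, with *Plau* the nearest at 0.776.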

How the data were processed

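The 4 sham, 4 day 1 AMI, and 4 day 7 AMI libraries were grouped by their labels. The methods of the study describe adult male mice, random hexamer cDNA, paired-end reads, trimming with Cutadapt, alignment with STAR to the Ensembl GRCm38 reference, and quantification with RSEM. The submitters' processing notes name STAR 2.4.0j, RSEM, and CASAVA 1.8. The authors deposited raw counts, whole numbers of reads per gene without normalization, for 53801 genes. TPM values, which RSEM estimated and the authors deposited with 2 decimals, cover the same genes. The counter behind the raw counts and the strand counted are not given in the sources used here, so reads of overlapping antisense genes cannot be told apart.

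Counts of 12 libraries were fitted with edgeR 4.0.16 in R 4.3.3 (TMM, filterByExpr by group, quasi-likelihood test), with Benjamini-Hochberg adjustment over 15306 genes. Adjusted p-values are from this fit unless another fit or test is named, such as limma 3.58.1 on log2(TPM + 1) or library sizes alone in edgeR. Standard errors are those implied by the F statistic. Log2 CPM used a prior count of 2, and ratios a pseudocount of 0.1 TPM. Depth was between 23204551 and 32166517 counts. Ratios and levels relative to markers were compared with exact two-sided permutation tests. Alternatives were DESeq2 1.42.0, other scalings and filters, a replicate block, and each heart left out. On simulated day 1 AMI and sham data with 200 changed genes, edgeR recovered 200 over 15129 genes, DESeq2 200 and limma 193 over 15306 genes, with 0 false calls each. The simulated spread was the same for all genes, and the changed genes were above a minimum count and changed beyond the FC minimum. Recovery of genes with few counts, or with a spread as wide as that of *Plaur*, was thus not tested. Within groups, any 2 libraries differed by a chi-square of at least 9.41 per degree of freedom, so none repeated another. Python 3.11.15 with matplotlib 3.10.9 made the figures.

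The 9 genes, the marker lists, and the lists of other pathway genes were chosen with earlier results of these data known. Named from each pathway list were up to 3 called genes with the largest change in each comparison averaging 1 CPM or more in the higher group, and, for likeness, the 2 nearest genes averaging 1 CPM or more. The values of 1 gene of these lists are not reported here, although it is in the counts. Gene positions are from GENCODE M21 and promoters from RefSeq.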

Additional observations from a re-analysis of the deposited data

Results flagged for a closer look

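In 1 of 27 groups of 4 hearts, a heart stood apart from its group by Dixon's test, where chance gives about 1 in 20 groups. This was *Tfpi* in day 1 AMI replicate 1, at 51.0 CPM beside 58.1 to 59.4 CPM in the other hearts of the group, a gap of 0.845 of the range. Without that heart the day 1 change of *Tfpi* remained negative and past the FDR.

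The change against sham differed between day 7 and day 1 at an FDR below 0.05 for 6 of the 9 genes. Of all genes tested, 24.2% were higher and 22.8% lower at that FDR between the days. The test was day 7 AMI against day 1 AMI in edgeR, since the sham hearts are common to both. The log2 difference was 1.71 for *Serpine2*, -1.81 for *Plaur*, 0.83 for *Plat*, -0.84 for *F13a1*, -0.57 for *F3*, and -0.40 for *Thbd*. The number of genes was 5 with library sizes alone, without *Thbd* (adjusted p = 0.179), and 4 on log2(TPM + 1) in limma, without *Thbd* (adjusted p = 0.476) and *F3* (adjusted p = 0.0696).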

How the results depend on the processing

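Calls of the 9 genes numbered 3 on day 1 and 5 on day 7 against sham under both DESeq2 fits, limma on TPM with either pseudocount, edgeR with RLE factors or library sizes alone, without mitochondrial genes, without the filter, and on only the groups compared. Between the days there were 2 calls under these alternatives except limma, where *Plat* made 3 at 1.02 and 1.06 with the 2 pseudocounts. Without a FC minimum there were 6 calls on day 1, 7 on day 7, and 6 between the days. At that threshold 22% of all genes were higher and 19.9% lower on day 1. The shares were 30.9% and 28.4% on day 7, and 24.2% and 22.8% between the days. Replicate numbers did not pair the hearts: of 12 pairs of same-numbered libraries, 4 had a correlation of deviations over 0.1 (range -0.39 to 0.32), and 3 of 12 libraries correlated best with their own number. With the replicate block, the counts of calls were 3, 5, and 2. With each heart left out, they were 3 to 3, 5 to 6, and 2 to 2, the sixth being *F3* without day 7 AMI replicate 3.

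Directions that turned belonged to values that had passed no test in the main setting, except that of *F13a1* against macrophage markers on day 1 (-0.29, exact p = 0.0286). Among them, *F3* on day 1 did pass the FDR on only the groups compared, in edgeR (adjusted p = 0.0239) and in DESeq2 (adjusted p = 0.0176). On log2(TPM + 1) and log2(TPM + 0.1) the values that turned were *F3* on day 1 (0.020 and 0.022), *Serpine2* on day 1 (0.15 and 0.16), *Thbd* on day 7 (0.42 and 0.43), *F13a1* on day 7 (0.39 and 0.41), *Tfpi* between the days (0.14 on both), and *Plau* between the days (0.062 and 0.065). With library sizes alone, *Serpine2* on day 1 was 0.12, *Thbd* on day 7 0.24, and *F13a1* on day 7 0.23. The day 7 ratio of *Plau* over *Plat* was -0.034 on the log2 scale with a pseudocount of 1, and *Serpine2* over both activators was 0.0054 from counts. With the median of the markers, *F13a1* against macrophage markers on day 1 was 0.057, and *Serpine2* against fibroblast markers was 0.12, 0.063, and -0.059 in the 3 comparisons. Relative to the median of all genes under each scaling, the log2 FCs that turned with the scaling stayed negative throughout. On log2(TPM + 1) these differences were -0.21 for *F3* and -0.08 for *Serpine2* on day 1. On that scale they were -0.02 for *Thbd* and -0.05 for *F13a1* on day 7, and -0.04 for *Tfpi* and -0.12 for *Plau* between the days. The cause of the turns was not tested. Calls over all genes split into 1192 higher and 456 lower on day 1 and 2346 and 900 on day 7 with TMM, and into 1764 and 217, and 3633 and 318, with library sizes alone, or 957 and 63, and 2668 and 111, on log2(TPM + 1). Between the days the splits were 1308 and 411, 1626 and 293, and 879 and 130. Depth limits *Procr* and *Plaur* most, with 17 and 23 counts in their lowest sham libraries.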
